A study of Mus musculus with 463 samples.

Results

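Single cells of the mouse liver bud were compared with Pdx1-high cells of the neighbouring ventral pancreatic region at E10.5 (embryonic day). The liver bud cells (23 cells in 2 numbered sets) had been sorted as Liv2+, Liv2 being a surface antigen of hepatoblasts. The pancreatic cells (39 cells in 6 sets) had been sorted as Pdx1-GFP-high from the ventral Pdx1-expression region of embryos that carry a Pdx1-GFP transgene. Members were chosen by these labels, not by measured values, and make up 62 of the 447 cells of the series, which covers ventral and dorsal pancreas, liver bud and liver in 12 sorted groups of single cells. The labels list no treatment and no culture for either group, and give no genotype for the embryos behind the liver bud cells. What a numbered set stands for (animal, litter or plate) is not in the labels. The p-values therefore speak only for variation from set to set, and this could be technical. Pdx1 set the pancreatic gate, and its level between the groups is therefore a description and no finding. The 28 dorsal Pdx1-high cells of the same day served as a reference population of pancreatic progenitors.

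Liver bud and ventral pancreas arise side by side from the ventral foregut endoderm. Hepatoblasts, the progenitors of hepatocytes and bile duct cells, secrete plasma proteins such as alpha-fetoprotein and albumin, and are shaped by FGF and BMP signals from heart and septum mesenchyme. Pancreatic progenitors carry the transcription factors Pdx1, Ptf1a and Sox9 and later give rise to acinar, ductal and endocrine cells. Both kinds of progenitor use a common set of endoderm factors, among them Foxa2, Hnf4a, Hhex and Prox1.

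The upstream sequences of 4 genes are shown because these genes stand at the poles of the comparison and hold a motif of a factor known for its lineage. All are from RefSeq with build GRCm38.p6, cover the 250 bases before the annotated start, and read 5′ to 3′ on the gene's strand. In the first 3, which belong to liver genes, capitals mark GTTAAT, or on the other strand its reverse complement ATTAAC, which are core letters of sites of the hepatocyte nuclear factor HNF1. In the fourth, capitals mark TGGGAAA, searched for on both strands, the part of the Ptf1a complex's site that its partner Rbpj or Rbpjl binds. The genes were picked for holding these letters, and a match is a description, not a bound site.
Afp, chr5:90490464-90490713, plus strand: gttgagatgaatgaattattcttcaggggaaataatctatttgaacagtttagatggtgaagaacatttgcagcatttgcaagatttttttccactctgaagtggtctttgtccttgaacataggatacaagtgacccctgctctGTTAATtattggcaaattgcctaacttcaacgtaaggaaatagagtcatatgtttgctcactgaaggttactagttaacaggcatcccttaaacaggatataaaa
Alb, chr5:90460620-90460869, plus strand: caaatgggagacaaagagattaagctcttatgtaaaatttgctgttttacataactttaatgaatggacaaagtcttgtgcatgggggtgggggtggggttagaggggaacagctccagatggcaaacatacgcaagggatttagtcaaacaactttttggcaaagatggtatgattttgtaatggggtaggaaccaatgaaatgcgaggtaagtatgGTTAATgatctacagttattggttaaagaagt
Fgb, chr3:83049864-83050113, minus strand: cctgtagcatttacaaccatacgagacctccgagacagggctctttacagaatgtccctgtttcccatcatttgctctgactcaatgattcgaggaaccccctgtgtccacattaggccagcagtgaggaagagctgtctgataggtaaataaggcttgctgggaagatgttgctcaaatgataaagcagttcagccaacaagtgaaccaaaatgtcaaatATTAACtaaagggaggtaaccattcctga
Cpa1, chr6:30638968-30639217, plus strand: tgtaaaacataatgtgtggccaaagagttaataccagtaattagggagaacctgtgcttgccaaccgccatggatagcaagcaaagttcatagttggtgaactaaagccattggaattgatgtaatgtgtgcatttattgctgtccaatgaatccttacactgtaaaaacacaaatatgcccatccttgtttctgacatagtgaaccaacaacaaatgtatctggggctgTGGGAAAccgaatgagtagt
The HNF1 half-site lies 105 to 100 bases before the start of Afp, 32 to 27 before that of Alb and 29 to 24 before that of Fgb, and TGGGAAA lies 20 to 14 bases before that of Cpa1. Cpa1 also holds 1 GTTAAT outside the capitals, and Fgb holds 1 match to TGGGAAA there, on the other strand. GTTAAT on either strand is found in 7.49% of the 27025 genes with a promoter of this length in the table, and TGGGAAA in 7.77%. Afp and Alb are neighbours on chromosome 5. In GENCODE vM21, the Alb gene spans 90460897 to 90476602 and the Afp gene 90490737 to 90508907, both on the plus strand.

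Liver bud cells held 934128 to 1506322 reads on genes (median 1243844) and ventral Pdx1-high cells 381910 to 1402680 (median 929090). The median number of detected genes was 9909 in liver bud and 9121 in ventral cells. Spike-in RNA took a median 1.17% of reads in liver bud cells and 3.29% in ventral cells, with medians of 9.03% and 12.45% in ventral sets 1 and 4. Levels of sets are CPM (counts scaled to 1000000 reads on genes) after TMM scaling, those of single cells are unscaled CPM, and both are shares of the RNA read. Liver bud cells thus differed from ventral cells in depth and spike-in share, and the part of total RNA per cell in the differences below was not tested. Tests used the sums over the cells of a set. They took the 7 sets that hold at least 3 cells: both liver bud sets (12 and 11 cells) and ventral sets 1, 2, 4, 5 and 6 (5, 6, 11, 5 and 10 cells). Ventral values below are listed in this order. Ventral set 3 has 2 cells and is given as a value only. No cell of the series had the counts of another.

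The markers matched the labels. Afp, the fetal counterpart of albumin, stood at 24804 and 35076 CPM in the liver bud sets and at 21.6, 156, 394, 38.5 and 66.0 CPM in the ventral sets. The groups did not overlap, and the difference was log2 fold change 7.78, SE 0.95, edgeR adjusted p = 0.00128. Afp took 2.68% of the reads of liver bud cells and ranked second of 13588 tested genes in reads per kilobase. Alb, albumin, was at 892 and 2113 CPM in liver bud against 0, 1.45, 13.9, 9.16 and 0.526 CPM (log2 fold change 8.19, SE 1.08, edgeR adjusted p = 0.00181). Its ventral levels ranged down to 0. Per kilobase, the liver bud level of Afp was 14353 and that of Alb 736 CPM. Dorsal Pdx1-high sets, the reference for pancreatic progenitors, held 23.1 to 150 CPM of Afp and 0 to 17.1 CPM of Alb, ranges that overlap those of the ventral sets.

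Pdx1, the homeodomain factor of the pancreatic anlage and the gate gene, was read at 0 and 0.154 CPM in liver bud and 205, 251, 261, 183 and 316 CPM in ventral sets. Ptf1a, a bHLH factor required for pancreatic fate, had no read in either liver bud set and 83.3, 102, 86.4, 156 and 63.1 CPM in the ventral sets. Against a floor of 3 counts over the liver bud sets it was at least 824-fold lower there (edgeR adjusted p = 0.00015). In the 2-cell ventral set 3, Afp was at 5.67, Alb at 0.436, Pdx1 at 244 and Ptf1a at 56.7 CPM, each on the ventral side. In GENCODE vM21 (GRCm38), Pdx1 lies on chromosome 5 from 147269959 to 147275848 and Ptf1a on chromosome 2 from 19445663 to 19447501, both on the plus strand.

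**Figure D1:**
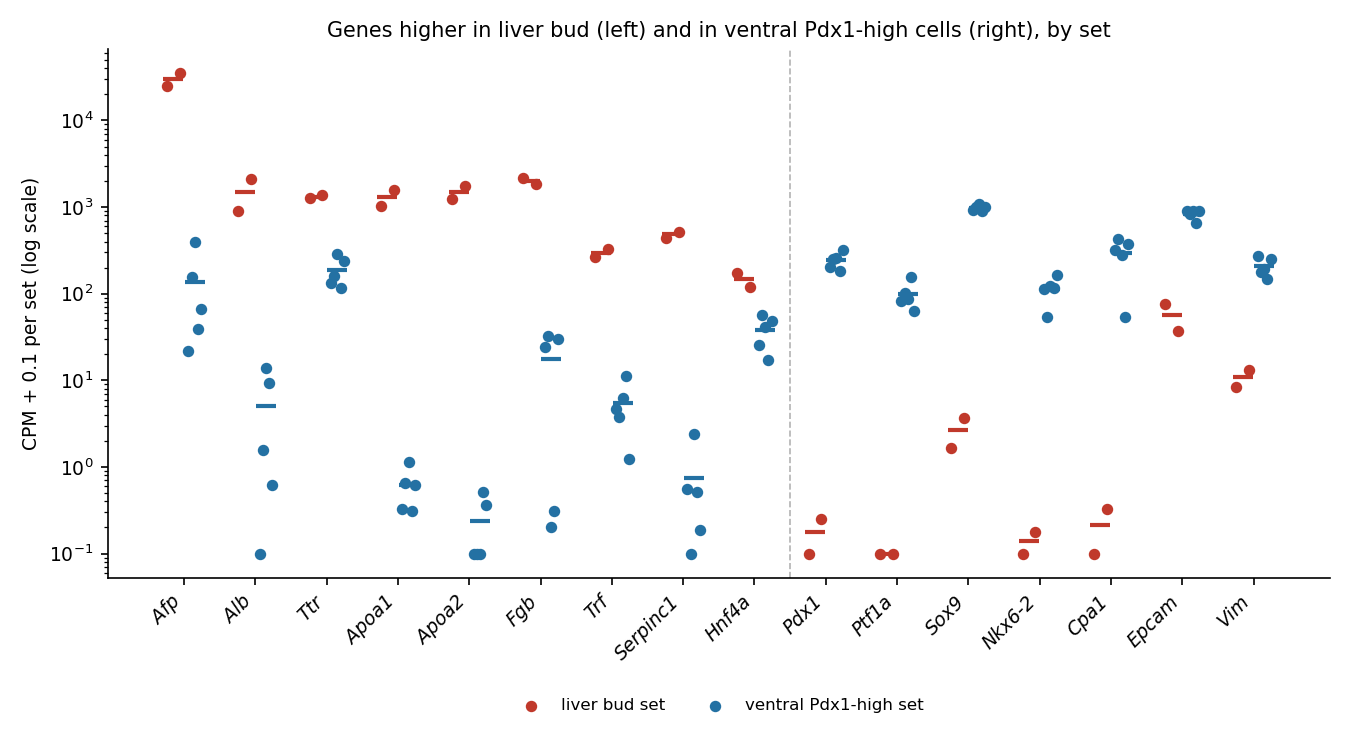
CPM plus 0.1 on a log axis for 9 genes higher in liver bud (left of the dashed line) and 7 higher in ventral Pdx1-high cells (right). Points are sets (2 liver bud, 5 ventral Pdx1-high) and bars are group means; liver bud and ventral sets do not overlap for any gene shown, and the gap is narrow for Hnf4a and Ttr.

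Across the transcriptome, 13588 genes passed the filter on low counts and 1209 (8.90%) differed at an adjusted p under 0.05, 598 (4.40%) higher and 611 (4.50%) lower in liver bud. DESeq2, with its own scaling, called 829 higher and 1323 lower. Without liver bud set 1 the count was 548 and without set 2 it was 368, so the number of calls rests on having both. None of the 1209 genes changed sign when any 1 set was left out, and 328 kept their call in all 7 such fits. Every liver bud set lay above every ventral set for 2332 genes (17.2%) and below for 1754 (12.9%). The median log2 fold change of all tested genes was -0.09. Genes that are high in 1 group only can pass the filter through that group, so counts over the gene lists below are descriptions, to be read against these percentages. A call named below held without any 1 set unless an edgeR adjusted p without a set is given. It also held in an edgeR fit over 37 sets of all groups, whose spread is estimated over all of them, unless an adjusted p over all sets is given. Fits without a liver bud set leave a single liver bud set against the ventral sets. A call lost there does not show that the liver bud sets differ. Setting genes with no read in 1 group at their bound of 3 counts moved the median of a list only where a second median is given.

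**Figure D2:**
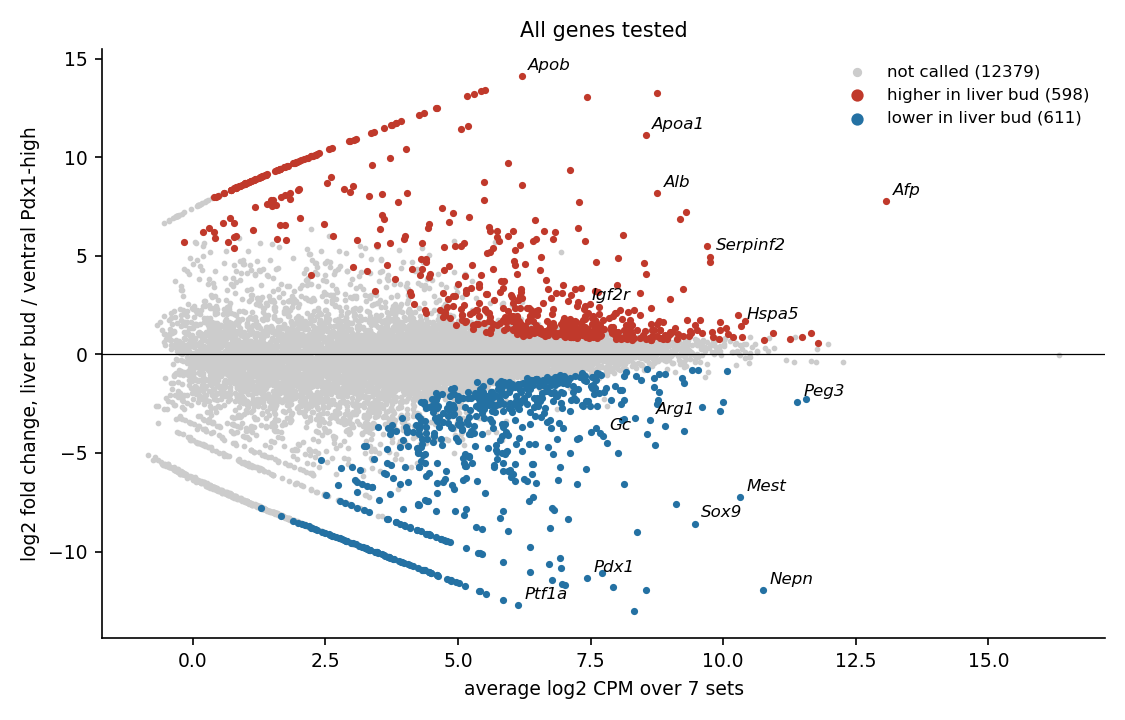
Log2 fold change (liver bud over ventral Pdx1-high) against average log2 CPM for 13588 genes; red and blue points passed an adjusted p under 0.05 (598 higher, 611 lower in liver bud). The straight bands at the edges are genes with no or few reads in 1 group, whose fitted fold changes depend on the prior count; Afp is the called gene with the highest average level.

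The genes with the largest fold changes had no read or few reads in 1 group. Apob, the structural protein of lipoprotein particles, was at 245 and 269.6 CPM in liver bud with no read in any tested ventral set, at least 3058-fold higher. The same held for Igfbp1, an insulin-like growth factor binding protein secreted by liver (105 and 211 CPM, at least 1878-fold), the ammonium transporter gene Rhbg (166 and 136 CPM, at least 1794-fold) and Itih3, which encodes an inter-alpha-trypsin inhibitor heavy chain (74.5 and 199.7 CPM, at least 1629-fold). Creb3l3, a liver transcription factor of lipid metabolism (58.4 and 109.9 CPM), Hlf, a PAR bZIP factor (69.5 and 71.3 CPM), Kng1, kininogen (64.9 and 101 CPM), and Apoc2, the cofactor of lipoprotein lipase (76.9 and 174 CPM), also had no ventral read, with lower bounds of 999.9-, 837-, 984- and 1490.4-fold. Shbg, sex hormone binding globulin, was at 125 and 128 CPM in liver bud and had 1 read in the ventral sets (4518-fold higher in liver bud, with a 95% counting interval of 810.2 to 178489). Counting intervals of fold changes, here and below, treat reads as independent and leave out the spread between sets.

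On the ventral side, Nepn, a small leucine-rich proteoglycan gene known from gut endoderm, was high in 4 sets and lower in set 2 (2452, 296, 2565, 3068 and 3650.2 CPM), against 0.0821 and 1.08 CPM in liver bud (log2 fold change -11.96, SE 1.41, edgeR adjusted p = 0.00111). Adamts1, a secreted protease, was at 0 and 0.0769 against 225 to 629 CPM. Spon1, a secreted adhesion protein, was at 0.0821 and 0.154 against 418 to 647 CPM (4310.2-fold lower in liver bud, with a 95% counting interval of 1475 to 20902; edgeR adjusted p = 1.3e-06). Kirrel2, an immunoglobulin-family membrane protein of pancreatic cells, was at 0 and 0.154 against 299 to 395 CPM, and P2rx1, an ATP-gated channel, at 0 and 0.0769 against 148 to 206 CPM (edgeR adjusted p = 5.5e-06; 0.0508 over all sets). Irs4, an insulin receptor substrate, and Rxrg, a retinoid X receptor, had no liver bud read and ventral levels of 14.8 to 101 and 27.3 to 83.7 CPM, respectively, at least 542- and 409-fold lower in liver bud. Rhov, a small GTPase, was at 0 and 0.0769 against 99.2 to 238 CPM.

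Secreted plasma proteins gave the largest number of genes higher in liver bud of any list, and their list was among the longest. Of all tested genes, 4.40% were higher. Of 24 listed, 21 passed the filter, 16 were higher and 1 lower in liver bud, with a median log2 fold change of 5.49. Serpinf2, alpha-2-antiplasmin, was at 2587 and 2977 CPM against 26.4, 164, 110.2, 89.8 and 56.9 (log2 fold change 4.96, SE 0.51, edgeR adjusted p = 0.00058). Transthyretin (Ttr), a thyroid hormone carrier, was at 1267 and 1364 CPM in liver bud, and it was also well above 0 in each ventral set (132, 159.6, 291, 116 and 237 CPM; log2 fold change 2.81, SE 0.32, edgeR adjusted p = 0.00096). Transferrin (Trf) was at 263 and 331 against 1.14 to 11.2 CPM, Serpind1, heparin cofactor II, at 481 and 719.9 against 0 to 0.175 CPM, and Ambp, the precursor of alpha-1-microglobulin, at 2576 and 2781 against 458 to 885 CPM. Retinol binding protein (Rbp4) was at 2286 and 3092 against 407 to 1509 CPM with an edgeR adjusted p of 0.0401, a call that ended in 6 of the 7 fits that left out a set (0.0953 and 0.292 without liver bud sets 1 and 2, and 0.0539, 0.0671, 0.0762 and 0.061 without ventral sets 1, 2, 5 and 6), and 0.125 over all sets. Vitronectin (Vtn) was below the ventral range in both liver bud sets (888 and 939 against 983 to 1594 CPM, adjusted p = 0.168).

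The lower plasma protein was Gc. Gc, the vitamin D binding protein, was at 18.1 and 14.46 CPM in liver bud and 169, 404, 319, 92.9 and 463 CPM in the ventral sets (log2 fold change -4.15, SE 0.67, edgeR adjusted p = 0.00542; 0.0693 without liver bud set 2). All ventral sets lay above both liver bud sets. Dorsal Pdx1-high sets held 102 to 245 CPM of Gc, also above both.

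Coagulation genes were higher in liver bud: 11 of 12 passed the filter, and 10 were higher and none lower (median log2 fold change 5.86; 5 higher without liver bud set 2). Fgb, a fibrinogen chain, was at 2150.1 and 1847 CPM against 24.3, 32.1, 0.105, 0.208 and 29.8 (log2 fold change 6.85, SE 1.22, edgeR adjusted p = 0.00852). Its ventral sets split between 24.3 to 32.1 CPM in 3 sets and under 1 CPM in the other 2. The other chains were Fga (378 and 691 against 0 to 9.78 CPM) and Fgg (758 and 909 against 7.29 to 48.2 CPM). Antithrombin (Serpinc1) was at 443 and 522 against 0 to 2.31 CPM and plasminogen (Plg) at 439 and 605 against 0 to 10.3 CPM. Prothrombin (F2) was at 281 and 460.3 against 0 to 11.4 CPM (edgeR adjusted p 0.0505 without liver bud set 2) and factor X (F10) at 166 and 260.0 against 0 to 18.9 CPM (0.137 without liver bud set 2). Of 18 complement and acute phase genes, 10 passed the filter and 6 were higher (2 without liver bud set 2), with a median of 6.13. C1s1, a complement protease, was at 40.1 and 42.6 CPM with no ventral read, at least 491-fold higher, Cfi, complement factor I, was at 157 and 169.9 against 0 to 6.19 CPM, and C3, the central complement protein, was at 113 and 251 against 0 to 7.28 CPM (edgeR adjusted p 0.139 without liver bud set 2; 0.1 over all sets).

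Lipid transport genes had the highest median difference of the lists. Of 14, 13 passed the filter, 11 were higher and none lower in liver bud, and all 13 had both liver bud sets above every ventral set, as 17.2% of all tested genes did. The median log2 fold change was 8.73, or 6.76 with the 5 genes that had no ventral read set at their bounds. Apoa1, the main protein of high-density lipoprotein, was at 1035 and 1561 CPM against 0.228, 0.545, 1.05, 0.208 and 0.526 (log2 fold change 11.11, SE 0.38, edgeR adjusted p = 1.3e-06). Apoa2 was at 1228 and 1768 CPM with 0 to 0.417 CPM in ventral sets. Apoe, by contrast, was read in all ventral sets (2578 and 2953 against 63.7, 173, 226, 30.6 and 43.4 CPM; log2 fold change 4.68, SE 0.65, edgeR adjusted p = 0.00236), as was Apom (876 and 997 against 6.13 to 24.3 CPM). Mttp, which loads lipid onto apolipoprotein B, was at 529 and 706 against 5.46 to 46.7 CPM, and Lcat, which esterifies cholesterol in plasma, at 111 and 200.1 against 0 to 1.05 CPM.

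Among 20 liver metabolic enzymes, 12 passed the filter, 9 were higher and 1 lower, with a median of 6.58, or 6.08 with 3 genes at their bounds. Fewer of them were called higher when liver bud set 1 or set 2 was left out, which leaves a single liver bud set in the fit. Ass1, a urea cycle enzyme, was at 130.0 and 197 against 0.417 to 3.77 CPM (log2 fold change 6.25, SE 0.54, edgeR adjusted p = 0.00022), a call that held without any 1 set. Otc, the urea cycle enzyme before Ass1, was at 15.8 and 54.1 against 0 to 0.208 CPM (edgeR adjusted p 0.0747 without liver bud set 2), and Gys2, liver glycogen synthase, was at 24.3 and 109 CPM with no ventral read (edgeR adjusted p 0.084 without liver bud set 2). Arg1, the last enzyme of the urea cycle, was the lower one: it stood at 34.4 and 69.9 CPM in liver bud and 473, 438, 587, 527 and 612 CPM in ventral sets (log2 fold change -3.34, SE 0.33, edgeR adjusted p = 0.0005).

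Of 11 iron-handling genes 8 passed the filter, and Trf and Fth1 were higher in liver bud. Fth1, the ferritin heavy chain, was at 1361 and 1655 CPM against 398, 431, 544, 465 and 425 (log2 fold change 1.74, SE 0.17, edgeR adjusted p = 0.00047). The ferritin light chain Ftl1 was at 595 and 729.7 against 596 to 704 CPM, a log2 difference near 0 (edgeR adjusted p = 0.995). The transferrin receptor Tfrc was at 343 and 283 against 202 to 272 CPM (edgeR adjusted p = 0.268) and the iron exporter Slc40a1 at 54.7 and 86.9 against 40.0 to 121 CPM (edgeR adjusted p = 0.98).

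Transcription factors linked to liver were mixed. Of 20 listed, 16 passed the filter, 4 were higher (Creb3l3, Cebpa, Tbx3 and Hnf4a) and 2 lower, with a median of 0.95. Without liver bud set 1 there was 1 higher and 1 lower, without set 2 there were 2 higher and none lower, and over all sets there were 3 higher and 1 lower. Tbx3, a T-box factor of hepatoblasts, was at 235 and 179 CPM against 0.683, 0, 13.8, 0.208 and 0.175 (log2 fold change 6.01, SE 1.33, edgeR adjusted p = 0.0235; 0.0953 and 0.0887 without liver bud sets 1 and 2). Ventral set 4 held 13.8 CPM of it and the other ventral sets under 1. Cebpa, a hepatocyte bZIP factor, was at 93.7 and 36.8 against 0.910 to 9.08 CPM (edgeR adjusted p = 0.0107, 0.194 without liver bud set 1; 0.121 over all sets). Hnf4a, the nuclear receptor of hepatic and foregut epithelium, was at 175 and 119 CPM in liver bud and also in every ventral set (25.5, 57.4, 40.8, 17.1 and 47.9 CPM; log2 fold change 1.96, SE 0.42, edgeR adjusted p = 0.0209; 0.186 and 0.0769 without liver bud sets 1 and 2). The lower members were Zbtb20, a zinc finger repressor of Afp in later liver (9.69 and 8.15 against 45.4 to 102 CPM, adjusted p 0.0604 without liver bud set 2), and Onecut1, also called HNF6 (23.6 and 24.7 against 61.4 to 92.4 CPM, adjusted p 0.0961 and 0.115 without liver bud sets 1 and 2; 0.479 over all sets).

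Factors that both lineages use were mixed. All 16 listed passed the filter, 2 were higher and 6 lower in liver bud, with a median of -0.34. Without liver bud set 1 or 2 there were 2 and 1 lower and none higher, without ventral set 1 or 2 there was 1 higher, and in the fit over all sets there were 2 higher and 2 lower. Hhex, a homeobox gene required for both organs, was at 329.6 and 229 CPM against 291, 156, 247, 113 and 99.1, with overlapping groups (log2 fold change 0.63, SE 0.41, edgeR adjusted p = 0.408). Prox1, a homeobox gene of hepatoblast migration, was at 439 and 404 CPM against 349, 157, 296, 387 and 289.6 (log2 fold change 0.51, SE 0.30, edgeR adjusted p = 0.35). Neither difference passed the test. The 3 Foxa pioneer factors had different values: Foxa1 was at 46.5 and 25.2 against 0 to 2.54 CPM (log2 fold change 5.57, adjusted p = 0.0405), Foxa2 at 60.3 and 73.7 against 105 to 184 CPM (-1.19, adjusted p = 0.0273) and Foxa3 at 144 and 162 against 38.7 to 107 CPM (1.505, adjusted p = 0.0541). Foxa3 did not pass the test, though it did without ventral set 4 (edgeR adjusted p 0.00231) and with DESeq2 (adjusted p = 0.0129). The Foxa1 call ended in 5 of the 7 fits that left out a set (edgeR adjusted p 0.251 and 0.158 without liver bud sets 1 and 2, and 0.0514, 0.0566 and 0.0671 without ventral sets 1, 2 and 4), and the Foxa2 call in 4 (0.224 and 0.168 without liver bud sets 1 and 2, and 0.0501 and 0.0543 without ventral sets 2 and 6; 0.062 over all sets). Gata4, a zinc finger factor of foregut endoderm, was lower in liver bud (5.17 and 1.69 against 53.9, 49.9, 31.8, 25.8 and 96.4 CPM; log2 fold change -3.91, SE 0.76, edgeR adjusted p = 0.0132; 0.129 without liver bud set 2; 0.105 over all sets).

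Of 24 pancreatic transcription factors, 23 passed the filter, 14 were lower in liver bud and none was higher, with a median of -2.53 (9 lower without liver bud set 2). Sox9, which maintains progenitors, was even across the ventral sets: it stood at 926, 1010.2, 1086, 899.7 and 1012 CPM in the ventral sets and 1.56 and 3.54 CPM in liver bud (log2 fold change -8.58, SE 0.40, edgeR adjusted p = 5.5e-06). Nkx6-2, a homeobox partner of Nkx6-1, was at 0 and 0.0769 against 53.4 to 165 CPM. Meis1, a TALE homeobox factor, was read on both sides (63.1 and 49.7 against 137 to 255 CPM, adjusted p = 0.00931, 0.0561 and 0.141 without liver bud sets 1 and 2). Hes1, a transcriptional repressor and Notch target, was at 95.6 and 115 against 119, 227, 149, 48.5 and 225 CPM with overlapping groups (edgeR adjusted p = 0.597).

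**Figure D3:**
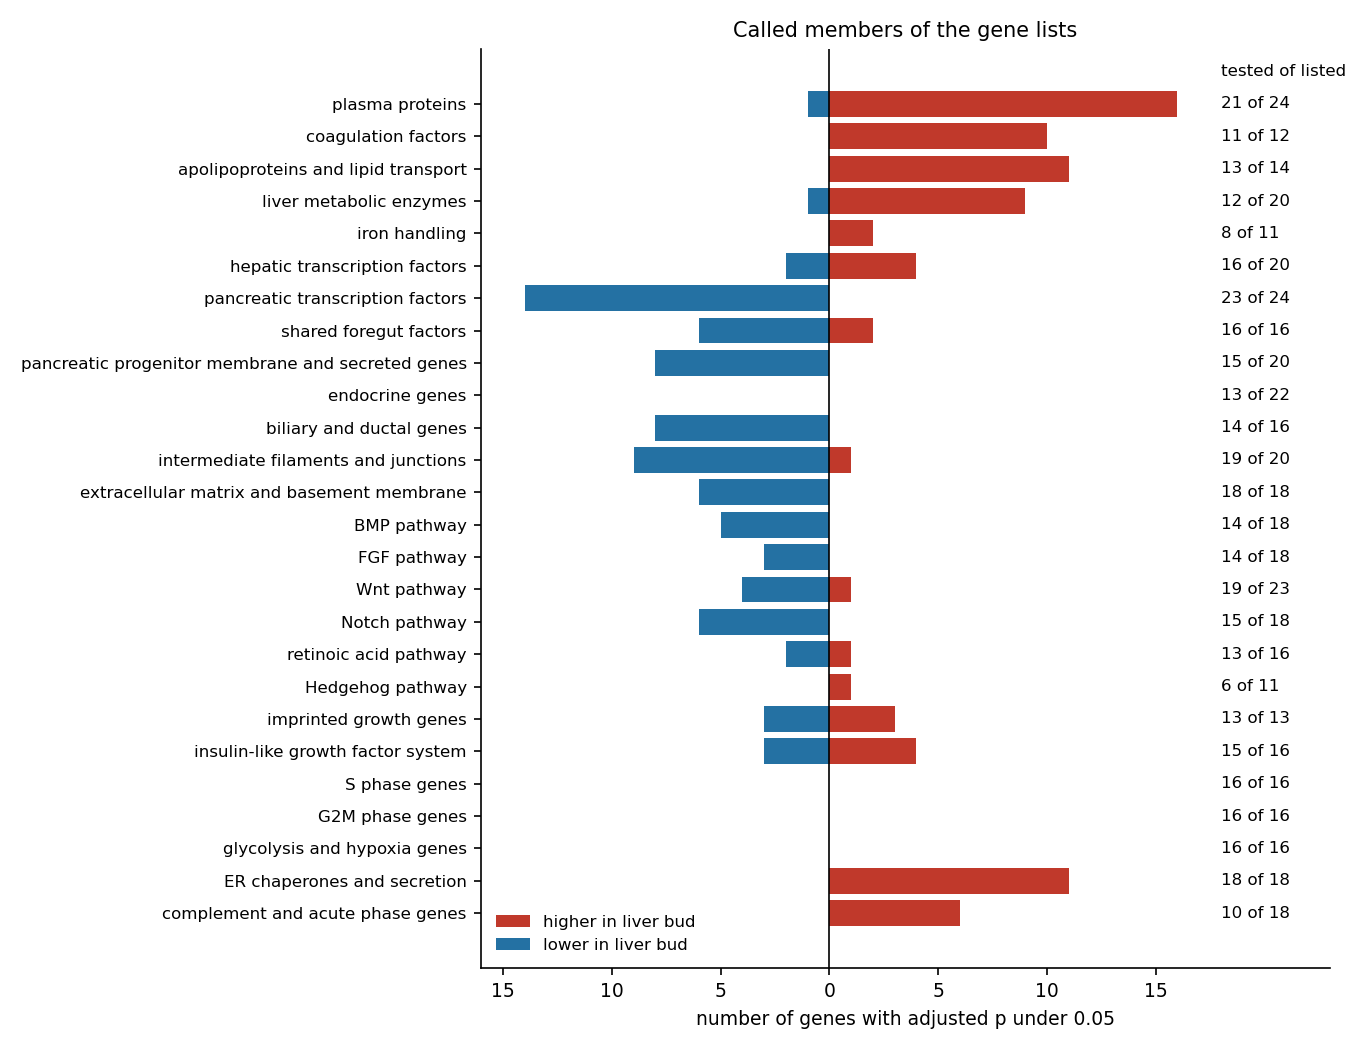
Number of genes per list with an adjusted p under 0.05, higher in liver bud to the right and lower to the left, with the number tested of those listed at the far right. Secretory liver lists point right, the pancreatic factor, ductal, junction, matrix, BMP, FGF and Notch lists point left or mostly left, and the cell cycle, glycolysis and endocrine lists have no called gene.

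Of 20 listed intermediate filament and cell junction genes, 19 passed the filter, 9 were lower in liver bud, 1 was higher and 9 did not pass the test, with a median of -2.91. E-cadherin (Cdh1) was at 45.0 and 33.2 CPM in liver bud and 235, 443, 292, 373 and 530.3 CPM in ventral sets (log2 fold change -3.26, SE 0.38, edgeR adjusted p = 0.00104). N-cadherin (Cdh2) was the higher one, at 277 and 284 against 121, 61.4, 62.1, 60.0 and 100.3 CPM (log2 fold change 1.79, SE 0.30, edgeR adjusted p = 0.00665; 0.0658 without liver bud set 2; 0.0842 over all sets). Epcam, an epithelial adhesion molecule, was at 75.9 and 36.7 CPM against 895, 836, 901, 657 and 901 (log2 fold change -3.90, SE 0.34, edgeR adjusted p = 0.00023). Claudins of tight junctions were lower too, with Cldn3 at 0.0821 and 0.154 against 70.3 to 156 CPM, Cldn4 at 4.93 and 4.23 against 135 to 183 CPM and Cldn6 at 283 and 70.4 against 1063 to 1718 CPM. Grhl2, a regulator of epithelial junction genes, had no liver bud read and 4.55, 75.9, 49.0, 100.4 and 69.0 CPM in ventral sets, at least 502-fold lower in liver bud. Vimentin (Vim), a filament protein usually linked to mesenchyme, was lower as well (8.37 and 13.2 against 273, 178, 192, 148 and 249 CPM; log2 fold change -4.27, SE 0.38, edgeR adjusted p = 0.00026; 0.0891 over all sets). The simple epithelial keratins Krt8 (389 and 487 against 602 to 918 CPM, adjusted p = 0.121) and Krt18 (320.4 and 384 against 337 to 534 CPM, adjusted p = 0.754) were high in both groups and did not pass the test.

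The list of progenitor membrane and secreted genes (20 listed, 19 in the table, 15 past the filter) had 8 lower and none higher, with a median of -3.90. Cpa1, a carboxypeptidase that marks multipotent tip progenitors, was at 322, 432, 282, 53.9 and 371 CPM in ventral sets and 0 and 0.231 CPM in liver bud (2585-fold lower in liver bud, with a 95% counting interval of 884 to 12536; edgeR adjusted p = 0.00088). Ventral set 5 held the lowest level. Of 16 biliary and ductal genes, 14 passed the filter and 8 were lower with none higher (5 and 4 lower without liver bud set 1 or 2, and 1 higher without ventral set 4; median -2.65). Cd24a, a surface glycoprotein of ducts, was at 239 and 269 against 1347, 1276, 1322, 1282 and 1419.6 CPM (log2 fold change -2.39, SE 0.17, edgeR adjusted p = 8.1e-05). Spp1, osteopontin, had no liver bud read and 96.9, 101, 169, 5.41 and 30.7 CPM in ventral sets, at least 676-fold lower, with an adjusted p of 0.0116 (0.0585 and 0.0766 without liver bud sets 1 and 2; 0.0806 over all sets).

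Matrix and basement membrane genes were lower in liver bud in 6 of 18 cases, all 18 past the filter and none higher, with a median of -0.96 (3 lower without liver bud set 1 or 2, and 1 higher without ventral set 4). Itga6, a laminin receptor chain, was at 7.31 and 4.54 CPM against 227, 138, 243, 167 and 182 (log2 fold change -5.01, SE 0.39, edgeR adjusted p = 0.00014), and Sparc, a secreted collagen-binding protein, at 61.9 and 30.5 against 255, 491, 564, 437 and 416 CPM (log2 fold change -3.23, SE 0.41, edgeR adjusted p = 0.00158). The integrin chain Itgb1 (278 and 259 against 284 to 434 CPM, adjusted p = 0.224) and fibronectin (Fn1; 928 and 776 against 227 to 807 CPM, adjusted p = 0.334) did not pass the test.

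**Figure D4:**
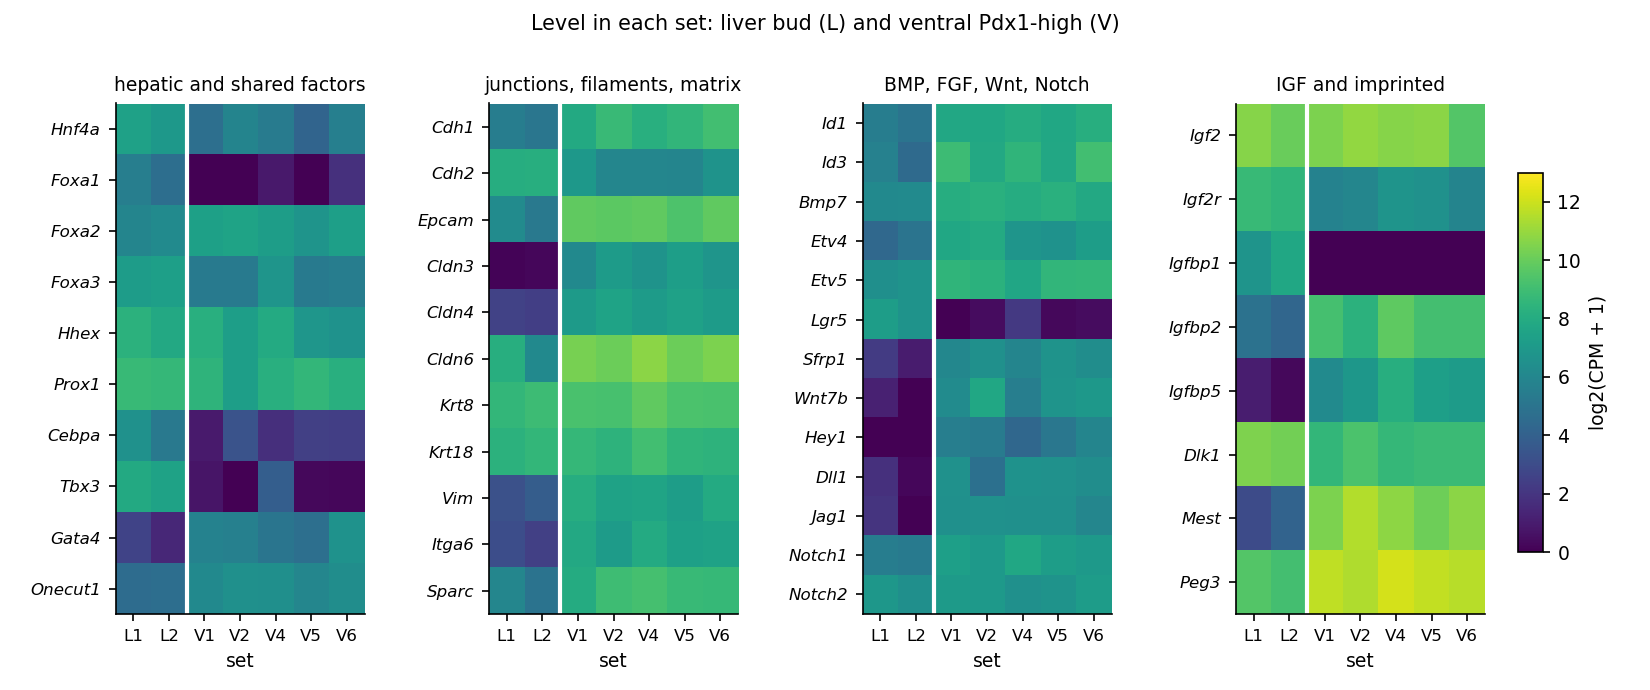
Colour gives log2(CPM + 1) in liver bud sets (L1, L2) and ventral Pdx1-high sets (V1, V2, V4, V5, V6) for 42 genes in 4 panels. Hhex, Krt18, Notch2 and Igf2 have overlapping colours on both sides of the white line, while Foxa1, Tbx3, Lgr5 and Igfbp1 are brighter and Cldn3, Wnt7b, Hey1, Igfbp5 and Mest darker in both liver bud sets than in any ventral set.

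BMP pathway genes that passed the test were lower in liver bud. Of 18, 14 passed the filter, 5 were lower and none higher in liver bud, with a median of -1.76 (3 lower without liver bud set 1 or 2, and 2 in the fit over all sets). Id1, an immediate target of BMP receptors, was at 44.6 and 31.4 CPM against 218, 212, 259, 209.9 and 280.0 (log2 fold change -2.63, SE 0.27, edgeR adjusted p = 0.00053; 0.0771 over all sets). Id3 was at 52.1 and 21.2 against 481, 233, 367, 220.3 and 525 CPM (log2 fold change -3.32, SE 0.52, edgeR adjusted p = 0.00476). Id2 was at 575 and 467 against 768 to 1346 CPM (edgeR adjusted p = 0.058, DESeq2 adjusted p = 0.00134). The ligand Bmp7 was at 70.7 and 74.5 against 275, 301, 260.1, 302 and 227 CPM (log2 fold change -1.91, SE 0.22, edgeR adjusted p = 0.00094; 0.254 over all sets), and the pseudoreceptor Bambi at 83.6 and 64.6 against 174 to 370.0 CPM (edgeR adjusted p = 0.0217, 0.0947 and 0.248 without liver bud sets 1 and 2). The receptors Bmpr1a (66.8 and 76.9 against 46.1 to 119 CPM, adjusted p = 0.86) and Bmpr2 (21.8 and 9.85 against 18.1 to 75.0 CPM, adjusted p = 0.213) overlapped between groups.

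In the FGF pathway, 14 of 18 passed the filter, 3 were lower and none higher, with a median of -0.56. Without ventral set 4, 2 were higher. The 3 are targets of FGF signalling: Etv4 (19.8 and 30.7 against 217, 245, 107, 97.5 and 151 CPM; log2 fold change -2.69, SE 0.46, edgeR adjusted p = 0.0071), Etv5 (89.1 and 101 against 363, 319.9, 205, 381 and 391 CPM; log2 fold change -1.80, SE 0.29, edgeR adjusted p = 0.0053) and the feedback inhibitor Spry2 (18.6 and 52.8 against 70.1 to 311 CPM, adjusted p = 0.0402). Every liver bud set lay below every ventral set for each of them, as for 12.9% of all genes. None of these calls held without liver bud set 1: the edgeR adjusted p was 0.0746 without liver bud set 1 for Etv4, 0.0622 and 0.0579 without liver bud sets 1 and 2 for Etv5, and 0.238 and 0.0793 without liver bud sets 1 and 2, and 0.0665, 0.051, 0.0623 and 0.0717 without ventral sets 2, 4, 5 and 6 for Spry2. Over all sets it was 0.107 for Etv4 and 0.125 for Etv5, and 1 member of the list was lower. Dusp6, another target, overlapped (152 and 149 against 102 to 372 CPM, adjusted p = 0.417). The receptor Fgfr2 was at 43.4 and 59.7 against 62.9 to 141 CPM (edgeR adjusted p = 0.137) and Klb, co-receptor for endocrine FGFs, at 117 and 135 against 42.7 to 100.5 CPM (edgeR adjusted p = 0.108).

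The Wnt list (23 genes, 19 past the filter) had 1 higher and 4 lower members and a median of -0.38 (2 lower without liver bud set 2, and 2 higher without ventral set 2 or 4). Lgr5, an R-spondin receptor and Wnt target, was at 148 and 102 CPM in liver bud and 0, 0.363, 3.46, 0.208 and 0.350 CPM in ventral sets (log2 fold change 6.97, SE 0.98, edgeR adjusted p = 0.00249). Its relative Lgr4 overlapped between groups (75.9 and 74.3 against 59.4 to 138 CPM, adjusted p = 0.578). The ligand Wnt7b (1.31 and 0 against 75.5, 217, 46.1, 107 and 120.4 CPM; log2 fold change -7.42, SE 1.16, edgeR adjusted p = 0.00454) and the secreted antagonist Sfrp1 (3.86 and 1.00 against 63.5, 91.1, 58.6, 100.2 and 80.8 CPM; log2 fold change -5.02, SE 0.62, edgeR adjusted p = 0.00138) were lower. Sfrp5, another antagonist and foregut marker, was at 0.0821 and 0.385 against 12.5 to 208 CPM (edgeR adjusted p = 0.00748, 0.0659 and 0.0594 without liver bud sets 1 and 2).

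Notch pathway genes were lower in 6 of 15 tested (18 listed) and higher in none, with a median of -3.42 (3 lower without liver bud set 2, and 3 in the fit over all sets). The ligands Dll1 (2.46 and 0.154 against 94.2, 27.1, 97.7, 95.2 and 82.8 CPM; log2 fold change -5.92, SE 1.01, edgeR adjusted p = 0.00701; 0.0661 with ventral set 3 included) and Jag1 (2.87 and 0 against 90.1, 93.7, 92.1, 90.0 and 61.8 CPM; log2 fold change -5.89, SE 1.09, edgeR adjusted p = 0.0106) were near 0 in liver bud. The receptor Notch1 was at 44.0 and 39.5 against 124 to 212 CPM (edgeR adjusted p = 0.00404, 0.066 without liver bud set 2; 0.149 over all sets), whereas Notch2 overlapped (116 and 87.7 against 90.3 to 143 CPM, adjusted p = 0.664). The target Hey1 had no liver bud read and 45.5, 40.8, 19.4, 34.6 and 60.3 CPM in ventral sets, at least 337-fold lower.

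In the retinoic acid pathway, 13 of 16 passed the filter, 1 was higher (Rbp4) and 2 lower, with a median of 0.74. Without any 1 set, the list had 0 to 2 higher and 0 to 2 lower members, and in the fit over all sets 0 and 1. Crabp1, a cytoplasmic retinoic acid binding protein, was at 0.0821 and 0 against 9.37 to 92.0 CPM (edgeR adjusted p = 0.00582, 0.0661 without liver bud set 2), and the receptor Rara at 20.3 and 15.2 against 35.9 to 73.3 CPM (edgeR adjusted p = 0.0384, 0.16 and 0.354 without liver bud sets 1 and 2, and 0.0601, 0.053, 0.0605 and 0.0618 without ventral sets 1, 2, 4 and 5; 0.066 over all sets). Of 11 Hedgehog genes, 6 passed the filter, 1 was higher and none was lower (1 lower without ventral set 4). The higher one was the ligand Ihh, at 4.76 and 10.9 CPM with no ventral read (at least 93.2-fold higher; adjusted p = 0.0351, 0.133 and 0.293 without liver bud sets 1 and 2, and 0.055 without ventral set 6; 0.0719 with a block for the stretch of sample numbers). None of the 20 Hox, ParaHox and gut patterning genes passed the filter on low counts.

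In the insulin-like growth factor system, binding proteins and a receptor passed the test and the ligand Igf2 did not. Of 16 genes 15 passed the filter, 4 were higher (2 without liver bud set 2) and 3 lower, with a median of 0.03. Igf2, the fetal growth factor, was high in both groups (1604 and 1055 against 1363, 1908, 1612, 1733 and 746 CPM; log2 fold change -0.15, SE 0.33, edgeR adjusted p = 0.856). Igf2r, which clears Igf2, was at 437 and 369 CPM against 53.0, 61.0, 106, 95.2 and 56.4 (log2 fold change 2.44, SE 0.29, edgeR adjusted p = 0.00115). Among binding proteins, Igfbp1 (above) and Igfbp4 (746 and 1001 against 174 to 358 CPM, adjusted p = 0.0034, 0.0523 without liver bud set 2) were higher. Igfbp2 (29.3 and 18.4 against 571, 329, 875, 557 and 557 CPM; log2 fold change -4.60, SE 0.44, edgeR adjusted p = 0.00041) and Igfbp5 (1.07 and 0.231 against 72.8, 116, 288, 163 and 138 CPM; log2 fold change -7.89, SE 0.85, edgeR adjusted p = 0.00071) were lower. The RNA-binding protein Lin28b was at 117 and 93.0 against 4.64 to 42.5 CPM (edgeR adjusted p = 0.0449, 0.226 and 0.195 without liver bud sets 1 and 2, and 0.0854, 0.0759 and 0.0756 without ventral sets 2, 4 and 5; 0.209 over all sets) and the chromatin protein Hmga2 at 97.4 and 94.3 against 178 to 306 CPM (edgeR adjusted p = 0.0273, 0.166 and 0.253 without liver bud sets 1 and 2; 0.242 over all sets).

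Of 13 imprinted growth genes, all past the filter, 3 were higher and 3 lower. Mest, a paternally expressed hydrolase-like gene, fell furthest: 1408, 2923, 1793, 1103 and 1681 CPM in ventral sets against 6.81 and 16.6 CPM in liver bud (log2 fold change -7.25, SE 0.61, edgeR adjusted p = 0.00019; 0.0513 over all sets). Peg3, a paternally expressed zinc finger gene, was at 741 and 557 against 3451, 2783, 4553, 3622 and 3085 CPM (log2 fold change -2.43, SE 0.24, edgeR adjusted p = 0.00051), and Ndn, necdin, at 23.2 and 30.6 against 111 to 143 CPM. Dlk1, a membrane protein that marks hepatoblasts, was higher in liver bud (1426 and 1191 against 383, 636, 401, 461 and 466 CPM; log2 fold change 1.48, SE 0.21, edgeR adjusted p = 0.00264; 0.258 over all sets), as was Grb10, an adaptor that restrains growth (1876 and 1573 against 762 to 1058 CPM, adjusted p = 0.0129, 0.128 and 0.0571 without liver bud sets 1 and 2). H19 was at 649.6 and 694 against 459.6 to 618 CPM (edgeR adjusted p = 0.308) and Meg3 at 993 and 460.3 against 398 to 917 CPM (edgeR adjusted p = 0.794).

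Of 18 endoplasmic reticulum chaperone and secretion genes, all past the filter, 11 were higher in liver bud, none was lower and 7 did not pass the test, with a median of 1.01. The number higher was 7 without liver bud set 1 or 2, and 7 in the test against a 1.5-fold change. Hspa5, the chaperone BiP, was at 2399 and 2319 CPM against 1064, 848, 702, 897 and 764 (log2 fold change 1.46, SE 0.18, edgeR adjusted p = 0.00122). Hsp90b1 (1839.8 and 1899.6 against 775, 769, 683, 874 and 633 CPM; log2 fold change 1.32, SE 0.16, edgeR adjusted p = 0.00129), the disulfide isomerase Pdia6 (1096 and 1064 against 453 to 530.0 CPM) and calnexin (Canx; 1217 and 1249.9 against 549 to 667 CPM) were higher too, each with both liver bud sets above all ventral sets.

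No proliferation or glycolysis gene was called. No gene of the S phase, G2M or glycolysis and hypoxia lists (16 each, all past the filter) passed the edgeR test, where 8.90% of all genes did. At an unadjusted p under 0.05, 0 S phase, 0 G2M and 3 glycolysis genes would pass (2 higher, 1 lower), and DESeq2 called 0, 0 and 1. Their median log2 fold changes were 0.34, -0.01 and 0.06. Rrm2, a ribonucleotide reductase subunit, was at 520.0 and 668 against 295, 424, 212, 571 and 414 CPM, and Top2a, a topoisomerase of dividing cells, at 669 and 438 against 553, 840.1, 300.0, 547 and 1039 CPM. Ccnb1, cyclin B1, varied widely among ventral sets (596, 467, 19, 81.4 and 509 CPM) and stood at 375 and 228 CPM in liver bud. Ldha, lactate dehydrogenase, was at 5269 and 5155 against 2798 to 4535 CPM (edgeR adjusted p = 0.142).

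No endocrine gene passed the edgeR test (22 listed, 13 past the filter, median -2.36), while 3 were lower at an unadjusted p under 0.05 and DESeq2 called 3 lower. Neurog3, which starts endocrine differentiation, had no liver bud read and 3.41, 6.90, 75.5, 0 and 4.47 CPM in ventral sets (edgeR adjusted p = 0.103), where 6 of 39 cells reached 10 CPM. Gcg, glucagon, split both groups by set (0 and 80.1 CPM in liver bud, 5.23, 5.08, 11.1, 69.4 and 96.7 in ventral sets; log2 fold change 0.09, SE 1.64, edgeR adjusted p = 0.985). It had no read in any of the 12 cells of liver bud set 1 and 28.5 to 102 CPM in all 11 cells of set 2. Ventral cells held 4.70 to 6.59 CPM in set 1, 57.8 to 77.5 in set 5 and 19.8 to 398 in set 6. The dorsal Pdx1-low sets of the same day had median levels of 20002 to 43193 CPM per cell. The part of RNA from other cells in these levels was not tested. Summed over all 22 endocrine genes, the 2 liver bud sets held 26.0 and 93.2 CPM and the ventral sets 65.3 to 246.7 CPM.

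Summed over sets, markers of other cell types were low in both groups, with some higher sums in single cells. Summed over each list, erythroid markers came to 5.01 to 6.85 CPM in liver bud sets and 3.09 to 6.46 in ventral sets, with no liver bud read of the embryonic globin genes Hbb-y and Hba-x. Immune markers summed to 2.22 to 4.77 and 0 to 8.58 CPM, with no read of Ptprc, the leukocyte antigen CD45. Cardiac muscle markers summed to 3.00 to 8.21 and 2.05 to 31.3 CPM, and mesenchyme markers to 3.38 to 11.4 and 11.7 to 38.2 CPM. Endothelial markers summed to 74.8 to 99.9 CPM in liver bud and 9.16 to 25.1 in ventral sets, mostly from Egfl7 (71.3 and 94.4 against 8.54 to 18.9 CPM; adjusted p = 0.00446, 0.105 without liver bud set 2). Cdh5 and Kdr, which define endothelium, had no read in either group. In single ventral cells, the sums reached 236 CPM for cardiac muscle and 119 CPM for mesenchyme markers. In a liver bud cell, endothelial markers reached 174 CPM. The part of RNA from other cells in these sums was not tested.

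Single liver bud and ventral cells did not overlap in Afp or Alb, where ventral cells held at most 2277 and 106 CPM. Pdx1 set the ventral gate, so its levels in ventral cells are a description. All 23 liver bud cells held 10 CPM or more of both Afp (4274 to 45358 CPM, median 26676) and Alb (352 to 6213 CPM), an exact 95% Clopper-Pearson interval of 85.2% to 100% that covers counting error only. No liver bud cell reached 10 CPM of Pdx1 or Ptf1a, which allows a share of up to 13.0% when the limit for a count of 0 is set at 3 of the 23 cells. Of 39 ventral cells, all held 10 CPM of Pdx1, the gate gene, and 33 (84.6%, 69.5% to 94.1%) held 10 CPM of Ptf1a. Liver bud cells held 9 or 10 of 10 hepatoblast markers at 10 CPM and at most 1 of 8 pancreatic markers. Ventral cells held 2 to 8 pancreatic and 0 to 5 hepatoblast markers (medians 6 and 3). The pancreatic markers include the gate gene Pdx1.

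Afp was read at 10 CPM or more in 22 of 39 ventral cells (56.4%, 39.6% to 72.2%), against 14 of 28 dorsal Pdx1-high cells (50.0%, 30.6% to 69.4%), at median depths of 929090 and 980160 reads. The ventral median was 26.2 and the dorsal 11.1 CPM. Alb reached 10 CPM in 2 of 39 ventral (5.13%, 0.627% to 17.3%) and 4 of 28 dorsal cells (14.3%, 4.03% to 32.7%). The ventral intervals overlapped those of the reference population for both genes. They cover counting error only and leave out the spread between sets. By set, the ventral share with Afp ran from 3 of 11 cells (set 4) to 5 of 6 (set 2). The dorsal share ran from 3 of 9 cells (set 1) to 2 of 3 (set 6). Hnf4a reached 10 CPM in all 23 liver bud cells, in 22 of 39 ventral cells (56.4%) and in 19 of 28 dorsal cells (67.9%). Sox9 did so in 1 of 23 liver bud cells and in all ventral and dorsal cells.

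A pair of ventral cells of set 4 had the highest Afp of their group. The first held 2277 CPM of Afp and 569 of Ttr with no Alb read, beside 183 CPM of Pdx1, 1100.1 of Sox9 and no Ptf1a read. The other held 902 CPM of Afp, 106 of Alb and 998 of Ttr, beside 180.2 CPM of Pdx1 and 549 of Sox9, with no Ptf1a read, and had 5 hepatoblast and 2 pancreatic markers. Whether either library holds RNA of more than 1 cell was not tested. The next highest ventral cell held 400.2 CPM of Afp. In the dorsal reference, Afp reached 570 CPM. There, 5 of 28 cells had 5 or more hepatoblast markers (highest 6), against 1 of 39 ventral cells (highest 5). The hepatoblast markers include Ttr and Hnf4a, which were read in every ventral and dorsal Pdx1-high set. The lowest Afp level of any liver bud cell was 4274 CPM.

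**Figure D5:**
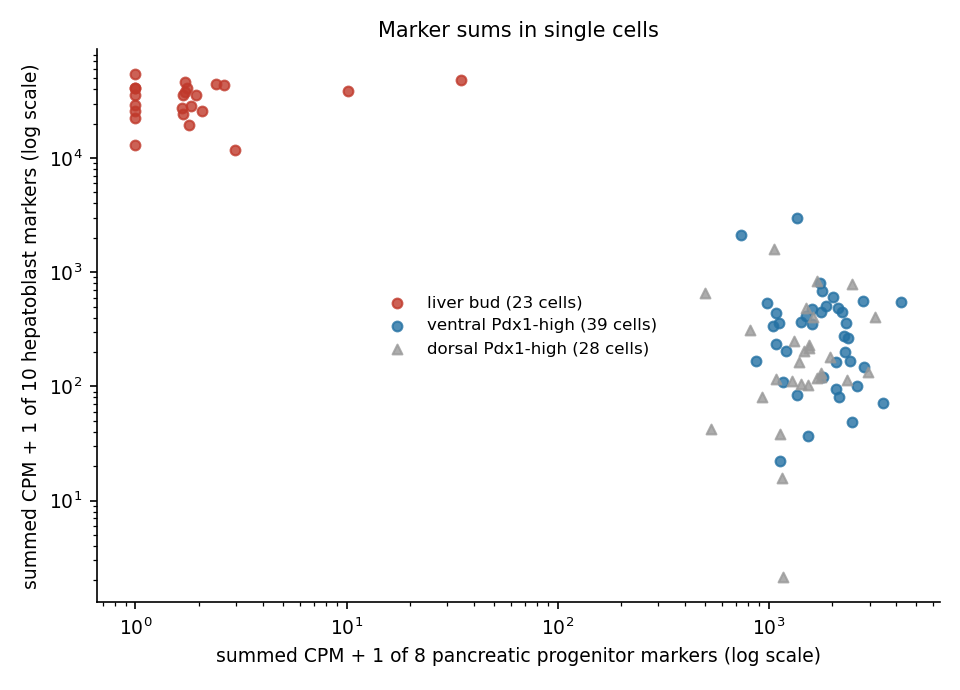
Each point is a cell: summed CPM plus 1 of 8 pancreatic progenitor markers (x axis) and of 10 hepatoblast markers (y axis), both on log axes, for 23 liver bud, 39 ventral and 28 dorsal Pdx1-high cells. Liver bud cells hold at least 11659 CPM on the y axis and at most 33.8 on the x axis, and ventral and dorsal cells mix at the lower right. The x axis includes Pdx1, the gate gene.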

How the data were processed

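Single-cell libraries (Smart-seq2) were analysed from 1 table of read counts per gene and cell as deposited. The authors aligned reads with TopHat2 2.1.0 and Bowtie2 to GRCm38 (mm10) and counted them with HTSeq 0.6.0, per the submitters' processing notes. For strand and multimapping, no setting is given in the sources used here, which leaves counts of overlapping genes and of near-identical copies uncertain. The set number was read from each cell's name. Reads of the cells of a set were added up, and sets with at least 3 cells were compared by edgeR's quasi-likelihood test (edgeR 4.0.16, limma 3.58.1, R 4.3.3; TMM scaling, the filterByExpr filter on low counts, Benjamini-Hochberg adjustment over 13588 genes, threshold 0.05), two-sided, in a fit of the 7 sets. SE is the log2 fold change over the square root of F and restates that test. The 92 spike-ins stayed out of library sizes. No cell was filtered out and no doublet caller was run. Intervals for shares of cells are exact Clopper-Pearson intervals. With 381910 or more reads per cell, 1 read is at most about 2.62 CPM.

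Named genes are the 4 markers, per direction the 12 largest changes (average log2 CPM of 4 or more, groups that do not overlap), and from each list up to 4 called members per direction and up to 3 further members by average level. Not all of them are described, and some are not reported here. Hbb-y, Hba-x, Ptprc, Cdh5 and Kdr are named as defining markers of other cell types. The members, the 32 lists (490 genes) and the tests were chosen with earlier results of these data known. Alternatives were DESeq2 1.42.0 with its own scaling, edgeR's RLE scaling, no filter, a test against a 1.5-fold change, cells thinned to 100000 reads, ventral set 3 included, a block for the stretch of sample numbers, a fit over 37 sets of all groups with and without the set number as a block, and each set left out. The script was tested on simulated data. Dorsal Pdx1-high, dorsal Pdx1-low and E15.5 liver cells gave reference levels, and the remaining groups of single cells entered only the fit over 37 sets. Bulk libraries were not used here.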

Additional observations from a re-analysis of the deposited data

Results flagged for a closer look

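In each named gene, the highest and the lowest of the 5 ventral Pdx1-high sets were compared with the others by Dixon's ratio. Of the 136 genes tested, 14 had a set that stood apart. Chance flags about 1 in 20 groups of normally distributed values. That rate does not apply near 0, where a gene with reads in 1 set only is flagged in any case. The number of flags was therefore not compared with it. Only ventral Pdx1-high sets could be tested, since liver bud has 2.

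Ventral set 4 stood apart in 7 genes, each time as the highest. It held 13.8 CPM of Tbx3 (others 0 to 0.683), 3.46 CPM of Lgr5 (others 0 to 0.363), 2.31 CPM of Serpinc1 (others 0 to 0.455) and 6.19 CPM of Cfi (others 0 to 1.14). It also held 107 CPM of Foxa3 (others 38.7 to 44.1), 918 CPM of Krt8 (others 602 to 630) and 75.5 CPM of Neurog3 (others 0 to 6.90). The first 5 of these genes had higher levels in both liver bud sets than in any ventral set. The set also holds the pair of cells with the highest Afp of its group, and its median spike-in share was 12.45%. The part of either in these levels was not tested.

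In 3 liver genes a single ventral set held the only reads: set 6 for Shbg (0.0876 CPM) and Serpind1 (0.175 CPM), and set 5 for Otc (0.208 CPM). Set 1 held 370 CPM of Bambi (others 174 to 203). The lowest sets were set 5 for Epcam (657 CPM, others 836 to 901), set 2 for Dll1 (27.1 CPM, others 82.8 to 97.7) and set 6 for Jag1 (61.8 CPM, others 90.0 to 93.7).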

How the results depend on the processing

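Of 1209 genes called, 780 passed a test against a 1.5-fold change, and DESeq2 called 2152. The fit over all groups with the set number as a replicate block called 736. Of the 136 named genes, 25 lost their call with this block and 20 in the fit over all sets without it, among them Vim, Bmp7, Dlk1, Id1, Notch1, Cebpa, Gata4, Etv4 and Etv5 in both. Fga, F10, Otc, Meis1, Sfrp1, Dll1, Ihh and Grb10 lost it with the block (adjusted p 0.0549 to 0.0838) and not without it. With the block, liver metabolic enzymes had 3 higher in place of 9, coagulation factors 6 in place of 10, complement and acute phase genes 3 in place of 6, and BMP genes 2 lower in place of 5, Notch genes 2 in place of 6 and shared foregut factors 1 in place of 6. Same-numbered sets did not deviate together (correlations 0.016 for set 1 and -0.030 for set 2). With 2 liver bud sets, the deviations of 1 mirror those of the other, so these values cannot decide whether the numbers pair the samples. By sample number, liver bud set 2 (452 to 462) lies beside ventral sets 4, 5 and 6 (463 to 488), not ventral set 2 (94 to 99). The set number block thus joins liver bud set 2 with a ventral set of the other stretch. The block for the stretch joins liver bud set 1 with ventral sets 1 and 2, and liver bud set 2 with ventral sets 4, 5 and 6. It called 1011 genes. Leaving out 1 set gave 368 to 1126 calls, with 368 without liver bud set 2 and 548 without set 1. RLE scaling, no filter, thinned cells, the 2-cell set, the block for sample numbers and the fit over all sets stayed within 1.5 times of 1209. The called genes kept their sign under every alternative that could fit them. DESeq2 gave no adjusted p for Afp and Tbx3. Foxa3, Id2, Klb, Krt8 and Vtn did not pass the main test but passed under some alternatives. The DESeq2 adjusted p was 0.0129 for Foxa3, 0.00134 for Id2, 0.0239 for Krt8 and 0.0499 for Vtn. With thinned cells the edgeR adjusted p was 0.0435 for Foxa3, 0.0146 for Id2 and 0.0387 for Klb. Without ventral set 4 it was 0.00231 for Foxa3 and 0.0291 for Klb.

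Among the named genes, log2 fold changes turned in sign only where the gene did not pass the test. With the replicate block, Krt18 went to 0.084, Igf2 to 0.012, Top2a to 0.18 and Slc40a1 to 0.079. With no filter, Ftl1 went to 0.037 and Slc40a1 to 0.011. With ventral set 3 they went to 0.079 and 0.16, and with the block for sample numbers to 0.0058 and 0.044. Ftl1 went to 0.0021 in the fit over all sets, and Slc40a1 to 0.30 and Gcg to -0.036 with thinned cells. Gcg went to -0.90 with the block for sample numbers. Leaving out 1 set gave -0.15 to 0.15 for Ftl1, -0.39 to 0.28 for Slc40a1, -0.32 to 0.011 for Bmpr1a, -0.47 to 0.13 for Igf2, -0.42 to 0.68 for Meg3, -0.57 to 0.033 for Top2a, -0.54 to 0.16 for Ccnb1 and -11.23 to 1.10 for Gcg. The causes were not tested.

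The share of ventral cells with Afp was 74.4% at 1 CPM, 23.1% at 100 CPM and 64.1% with thinned cells. That with Ptf1a was 35.9% at 100 CPM. The number of liver bud sets, 2, limits every comparison.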

Other observations

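The series holds 4 cells of E15.5 liver, sorted for a Pdx1-Cre lineage label. They form 1 set and entered no test. They held 29753 to 49949 CPM of Afp and 11175 to 14581 CPM of Alb, where E10.5 liver bud cells held 4274 to 45358 and 352 to 6213 CPM. Pdx1 was at 0 to 1.96 CPM in them, Ptf1a had no read, and 9 or 10 of the 10 hepatoblast markers reached 10 CPM. Transthyretin stood at 2291 to 5694 CPM, against 548 to 1852 CPM in liver bud cells. The cells were shallower, at 442896 to 566461 reads.

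Glucagon was the 1 gene of the table that had no read in liver bud set 1 and 10 CPM or more in every cell of set 2 (1041 reads over 11 cells). No gene had the opposite pattern. The cells of liver bud set 1 carry sample numbers 77 to 88 and those of set 2 numbers 452 to 462. Ventral sets 1 and 2 (numbers 89 to 99) had median levels of 5.58 and 5.16 CPM, and ventral sets 4, 5 and 6 (numbers 463 to 488) of 9.86, 74.4 and 80.2 CPM. Dorsal Pdx1-high sets 1, 2 and 3 (numbers 23 to 38) had medians of 6.41, 2.61 and 28.3 CPM and sets 4, 5 and 6 (numbers 397 to 408) of 4.69, 90.2 and 79.0 CPM. The 4 E15.5 liver cells held 28.3 to 84.7 CPM. What these levels come from was not tested.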
